A study of Sus scrofa with 36 samples.

Results

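Interferon-stimulated genes were followed in the adrenal glands of pigs kept at a comfortable or a high ambient temperature. A list of 47 such genes was matched to the array by gene name, or by RefSeq transcript where the file gave no usable name, and each gene was read from its brightest probe. Probes were found for 40 of the 47 genes, 38 by name and 2 (RSAD2 and EIF2AK2) by transcript, out of 60305 probes on the array. The 7 genes without a matched probe were IRF8, GBP5, HERC6, IFITM3, CMPK2, EPSTI1 and LGALS3BP.

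RNA of the whole adrenal gland was hybridised to 1-colour 60-base probe arrays, with 1 array for each of 36 castrated male growing pigs. The pigs were Creole, Large White or their F1 cross, and each breed had 6 pigs slaughtered under thermoneutral conditions (TN, 24 °C) and 6 after heat stress (HS), which lasted 5 days per the labels and 4 or 5 days per the study's methods. The labels give 30 °C for HS and the growth protocol 32 °C. TN pigs were slaughtered before the temperature was raised and HS pigs after it, so the day of slaughter and the temperature cannot be told apart. The methods also give 3 litters per breed with 4 pigs each and 2 pens of 3 pigs in each group, so pigs of a breed are not all independent, and the litter and pen of each pig were not used here. Pigs are numbered within their group, and a number names a pig without pairing it with another.

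Interferons are secreted when a cell senses viral nucleic acid, and they act through JAK-STAT signalling to induce a shared set of genes in the cells that receive them. The products of these genes block viral entry, translation and replication, sense viral RNA, and feed back on the pathway itself. Levels of these transcripts are widely read as a sign of recent interferon exposure, and in whole tissue they can come from resident as well as immune cells.

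Values are normalized log2 intensities, so a difference of 1 is a 2-fold difference, and levels of different genes are not set against each other. Testing covered the 45943 probes whose spots exceeded background in 9 or more of the 18 pigs at either temperature. All 40 measured genes passed, 39 of them with a signal above background on all 36 arrays and PARP9 on 34. Between 42436 and 48060 probes were above background per array, and arrays correlated with each other at 0.982 to 0.996. All 9 tested markers of the adrenal cortex and all 4 of the medulla were above background on all arrays. Differences were tested with limma on temperature and breed and called at a false discovery rate (FDR) of 0.05 over all tested probes.

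The widest variation of the interferon-stimulated genes lay between pigs of the same group. For each pig, the level of the whole set was taken as the median, over the measured genes, of its difference from that gene's mean over all pigs. This level ran from -0.56 in Creole HS 6 to 0.82 in Large White HS 5. The next highest pigs were F1 HS 2 at 0.63 and F1 HS 1 at 0.52, and the next lowest were F1 TN 3 at -0.43 and Large White HS 4 at -0.41.

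The 6 Creole TN pigs had a lowest, median and highest set level of -0.40, -0.29 and 0.12, against -0.56, 0.08 and 0.35 in the 6 Creole HS pigs. The Large White TN pigs had -0.08, 0.02 and 0.38, and the Large White HS pigs -0.41, 0.00286 and 0.82. The F1 TN pigs had -0.43, 0.09 and 0.28, and the F1 HS pigs -0.20, 0.03 and 0.63. The 6 groups overlapped, and in each breed the HS pigs spanned a wider range than the TN pigs.

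**Figure D1:**
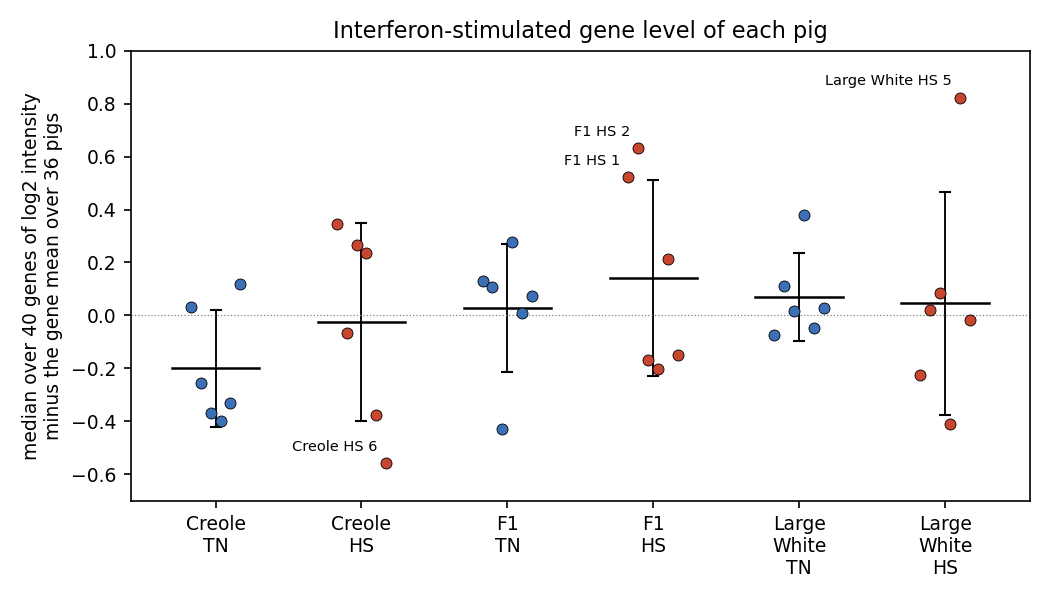
Level of the interferon-stimulated set in each pig (points; median difference from the gene means, log2) by breed and temperature, with the group mean as a line and the SD as bars. The 6 groups overlap, the highest pig is Large White HS 5 at 0.82 and the lowest is Creole HS 6 at -0.56.

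In Large White HS 5, 38 of the 40 genes were above the mean of the pig's own group, 16 of them by more than 1 on the log2 scale, and for 23 genes it lay farther above its group mean than any other pig. MX1, a GTPase that blocks influenza viruses, reached 15.57 there and was 4.94-fold above the group mean. ISG15, a ubiquitin-like protein that is attached to other proteins, reached 14.93 (4.25-fold above) and XAF1, a pro-apoptotic zinc-finger protein, 11.67 (3.30-fold above). RSAD2 (viperin, which makes a chain terminator of viral RNA synthesis) was 3.14-fold and USP18, the protease that removes ISG15, 3.01-fold above.

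Creole HS 6 stood at the other end, with 35 of the 40 genes below its group mean, 7 of them by more than 1. Its RSAD2 level was 5.76, which was 1.68 below the mean of its group in log2 terms. In F1 HS 2 and F1 HS 1, 34 of 40 genes each were above the group mean. These pigs were picked by their set level, so the counts describe them and do not test whether the genes move together.

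Markers of other cell types were read in the same pigs. The level of 17 tested leukocyte markers of 20 listed, computed like that of the set, ran from -0.36 to 0.38 over the 36 pigs. It was 0.16 in Large White HS 5, -0.18 in F1 HS 2 and -0.36 in F1 HS 1, which have the highest set levels. It was 0.02 in Creole HS 6, -0.26 in F1 TN 3 and -0.22 in Large White HS 4, which have the lowest. Large White TN 4, the pig with the highest leukocyte marker level, had the fourth highest set level, 0.38, so some pigs were high or low in both and others were not. Large White HS 5 also had the lowest adrenal medulla marker level of the 36 pigs, -0.55, and F1 HS 2 the highest adipocyte marker level, 1.01. The part of these cell types in the set level was not tested. In whole glands, a change in the number of cells of a type and a change of RNA per cell cannot be told apart.

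**Figure D2:**
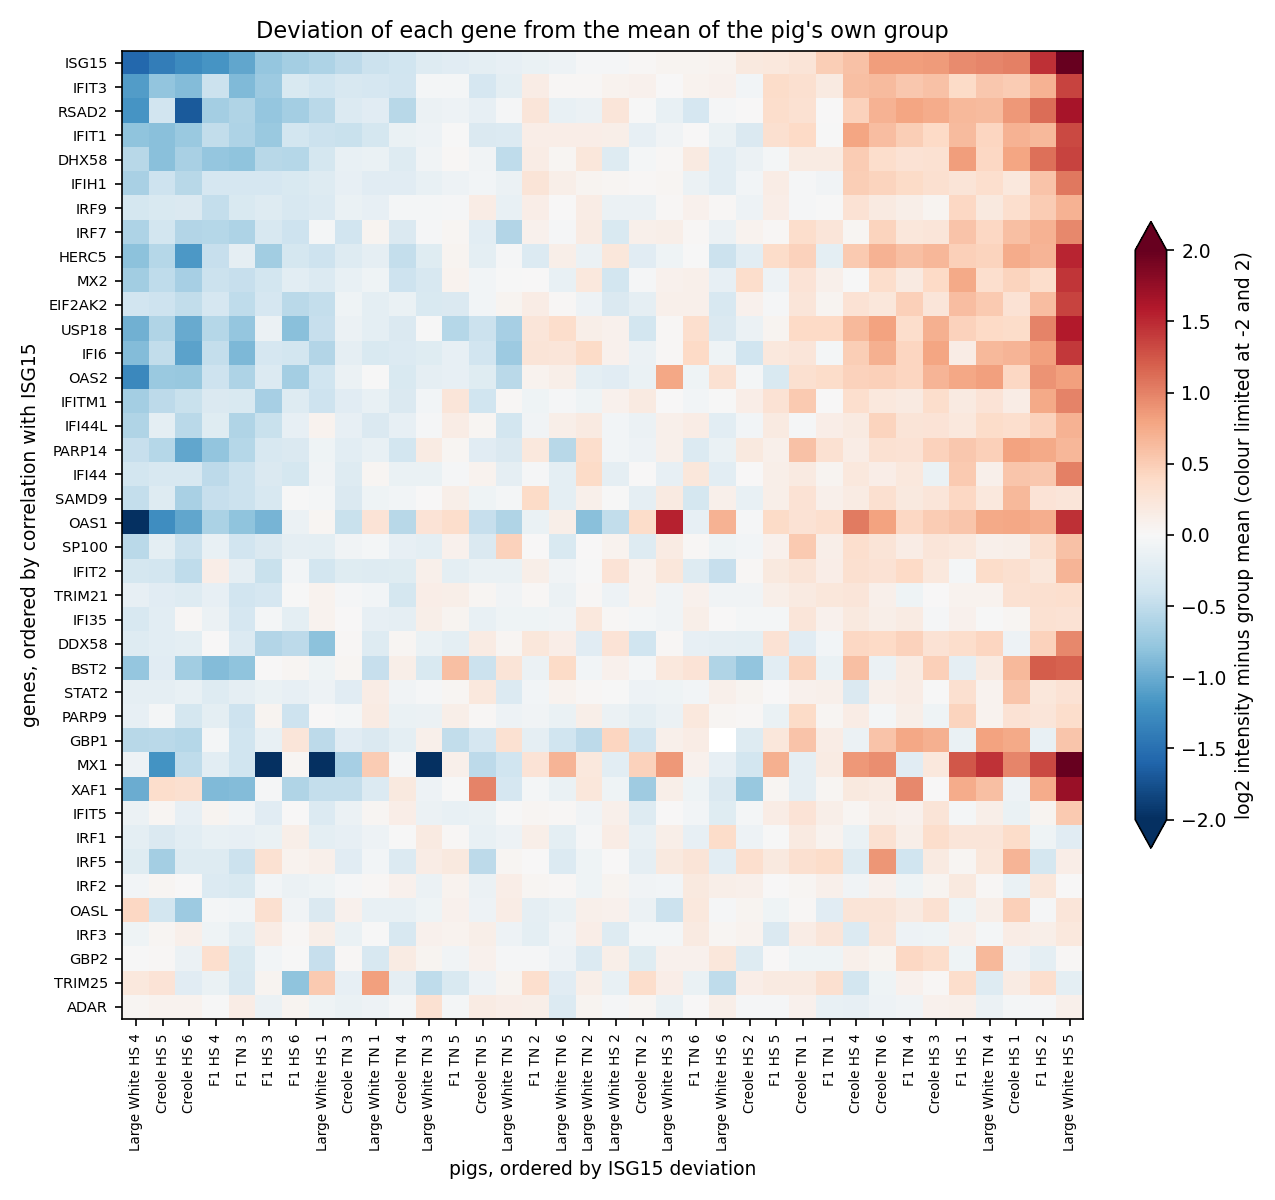
Difference of each gene from the mean of the pig's own breed and temperature group (log2, colour scale) in each of the 36 pigs. Genes are in rows by their correlation with ISG15, and pigs in columns by this difference for ISG15. Large White HS 5 is above its group mean for 38 of 40 genes and Creole HS 6 below for 35 of 40; the white cell is a missing spot of GBP1 in Large White HS 6.

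Most of the genes followed each other across pigs. Correlations between genes were taken on the differences from the mean of each pig's own breed and temperature group. Over 36 pigs, ISG15 correlated with RSAD2 at Pearson's r = 0.935 (Spearman's rho = 0.932) and with IFIT1, which binds foreign RNA caps, at r = 0.935 (rho = 0.914). OAS1, which makes the second messenger that activates RNase L, correlated with ISG15 at r = 0.785 (rho = 0.828). For these 3 pairs the permutation p was 1e-05 for both measures, the smallest that 100000 resamples can give, and the Benjamini-Hochberg adjusted p over 10 pairs of ISG15, MX1, IFIT1, OAS1 and RSAD2 was 1.67e-05 for r and 1.11e-05 for rho.

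MX1 followed the others less closely, with r between 0.479 (OAS1; rho 0.724; permutation p = 0.005 and adjusted p = 0.005 for r) and 0.690 (IFIT1; rho 0.756; permutation p = 2e-05 and adjusted p = 2.86e-05 for r). When the 2 pigs farthest from the median were left out, r over the 10 pairs lay between 0.527 and 0.912. With slide means removed as well as group means, it lay between 0.578 and 0.944.

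Across the rest of the set, 38 of 39 genes correlated positively with ISG15, and 35 passed 0.05 for both measures in a permutation test after adjustment over the 39. Beside RSAD2 and IFIT1, given above, the highest were IFIT3 (r = 0.960), DHX58, which tunes RNA sensing (r = 0.933), and IFIH1 (MDA5), which senses long double-stranded RNA (r = 0.930). The 4 that did not pass were the transcription factor IRF3 (r = 0.249), GBP2 (0.206), the ubiquitin ligase TRIM25 (0.068) and the RNA-editing enzyme ADAR (-0.113).

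A correlation with ISG15 above 0.7 was found for 24 of the 38 other genes measured on all arrays (63.2%), compared with 162 of 45852 tested probes (0.353%). These shares are descriptions of the same 36 arrays, on which the genes share pigs, slides and RNA.

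The spread between pigs was larger in HS than in TN. Within groups, the SD was larger in HS for 35 of the 39 genes with no missing spot (89.7%), compared with 56.7% of all 45853 such probes. The median ratio of the HS to the TN SD was 1.58 over the genes and 1.05 over all probes. ISG15 had a within-group SD of 0.551 in TN and 1.11 in HS. The larger HS spread was seen in 31 of 39 genes in Creole, 34 in Large White and 31 in F1, and without Large White HS 5 it was seen in 32 of 39 overall (82.1%, ratio 1.39) and in 26 of 39 in Large White. Since the genes moved together within pigs, these 35 genes are not separate observations, and no test of this difference in spread was run. Array weights, which limma estimates from the scatter of all probes, ran from 0.546 to 1.49, and the 4 lowest belonged to HS pigs with set levels above 0: Large White HS 5 (0.546), Creole HS 1 (0.569), Creole HS 4 (0.587) and F1 HS 1 (0.589). The part of these arrays' scatter over all probes in the spread of the set was not tested.

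Levels of the interferon-stimulated genes did not pass the test between HS and TN. None of the 40 was called by limma at an FDR of 0.05, against 0.886% of all tested probes, and 2 had an unadjusted p under 0.05 (5.00%, against 13.4% of all probes). The HS mean was higher for 31 genes and lower for 9, beside 50% of all probes higher, with a median difference of 0.08, beside 4.74e-06 over all probes. Since the genes moved together within pigs, these directions are not 31 separate observations. Without slide 4, 22 genes were higher with a median of 0.02, and without slide 5, 35 genes were higher with a median of 0.19. Leaving out Large White HS 5 alone gave 25 higher genes and a median of 0.04, and single pigs left out moved the median between 0.04 and 0.13.

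**Figure D3:**
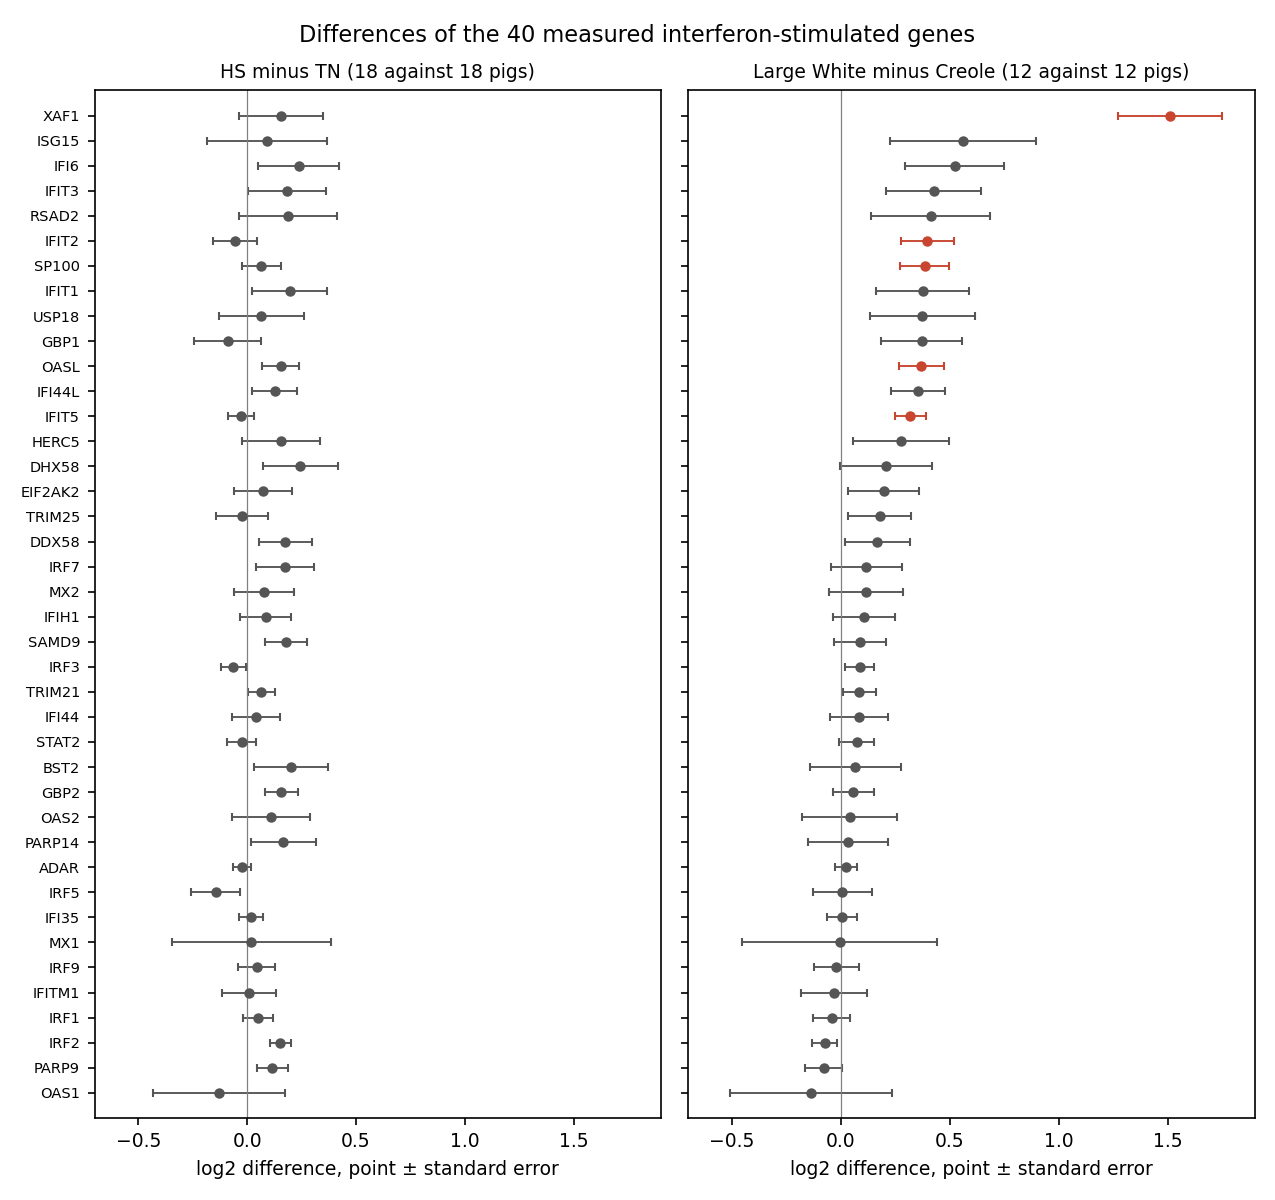
Differences of the 40 genes between HS and TN, and between Large White and Creole (log2, with the standard error as bars), with genes past an FDR of 0.05 in red. No gene is red for HS minus TN and 5 are for Large White minus Creole, of which XAF1 is the largest at 1.51.

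By role, 17 of 21 antiviral effectors, all 3 RNA sensors and 4 of 7 transcription factors had a higher mean in HS. ISG15 ran from 11.67 through a median of 12.85 to 14.09 in the 18 TN pigs and from 11.25 through 12.86 to 14.93 in the 18 HS pigs. The TN range lay inside the HS range, and the difference was 0.09 ± 0.27 (SE, limma adjusted p = 0.931). MX1 differed by 0.02 and OAS1 by -0.13 (adjusted p = 0.991 and 0.908). These values rested on single pigs or a slide, and were -0.03 for ISG15 without Large White HS 5, 0.09 for OAS1 without Large White HS 4 and 0.24 for MX1 without slide 2.

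The 10 largest HS minus TN differences lay between 0.17 and 0.24. They belonged to the RNA sensors DHX58 (0.24 ± 0.17) and DDX58 (RIG-I, 0.17), to the effectors IFI6 (0.24), BST2 (tetherin, which holds budding virions, 0.20), IFIT1 (0.20), RSAD2 (0.19), IFIT3 (0.18) and SAMD9 (0.18), to the transcription factor IRF7 (0.18), which drives interferon alpha genes, and to PARP14 (0.17). Their limma adjusted p-values lay between 0.437 and 0.786. Large White HS 5 lay above its group mean for all 10 genes, from 0.24 for SAMD9 to 1.65 for RSAD2, so these differences rested in part on this pig. For DHX58, the 18 TN pigs ran from 9.15 through 9.80 to 10.27 and the 18 HS pigs from 9.04 through 9.72 to 11.32, so the HS group held both the lowest and the highest pigs.

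The lowest adjusted p for temperature belonged to IRF2, a factor that competes with IRF1 for interferon response elements. IRF2 ran from 10.88 through 11.26 to 11.38 in TN and from 11.20 through 11.39 to 11.74 in HS. The groups overlapped, and the difference was 0.15 ± 0.05 (SE, limma unadjusted p = 0.0025, adjusted p = 0.103). A second IRF2 probe differed by 0.14 (adjusted p = 0.208), and GBP2, a guanylate-binding protein, was the other gene with an unadjusted p under 0.05 (0.16 ± 0.08, adjusted p = 0.366).

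Within Creole, 37 of the 40 genes had a higher mean in HS, with a median difference of 0.20, beside 49.2% of all probes with a higher mean. None passed the FDR threshold and none had an unadjusted p under 0.05 in limma, where 0 and 4.8% of all probes did. RSAD2 showed the largest of these differences: the Creole TN pigs ran from 6.26 through 6.73 to 7.50 and the Creole HS pigs from 5.76 through 7.67 to 8.30, a difference of 0.63. The HS pigs contained both the lowest and the highest of the 12 Creole levels. The lowest was Creole HS 6, at 1.68 below its group mean, so the RSAD2 difference rested in part on this pig. The median over the 40 genes rested on few pigs: it was 0.11 without Creole HS 1 (33 higher), 0.11 without Creole HS 3 (34 higher) and 0.13 without Creole HS 4. It was 0.27 without Creole HS 6 (38 higher), 0.04 without slide 3 (30 higher) and 0.43 without slide 5.

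Within Large White, 19 genes had a higher and 21 a lower mean in HS, with a median difference of -0.00537. Beside these 19, 49.2% of all probes had a higher mean. No gene was called by limma (0.0109% of all probes were), and GBP2 alone had an unadjusted p under 0.05, as did 6.27% of all probes. The differences ran from -0.81 for OAS1 to 0.36 for BST2. The even split of directions depended on single pigs, with 7 higher and 33 lower without Large White HS 5 (median -0.21) and 29 higher and 11 lower without Large White HS 4 (median 0.10). With array weights, 10 were higher and 30 lower. Within F1, 32 genes had a higher mean in HS, beside 50.6% of all probes, with a median difference of 0.08, none was called by limma (0 of all probes were), and IRF2 alone had an unadjusted p under 0.05, as did 12.2% of all probes. IRF2 ran from 10.88 through 11.24 to 11.38 in F1 TN and from 11.23 through 11.48 to 11.74 in F1 HS, a difference of 0.32 ± 0.08 (SE, limma adjusted p = 0.0788). It was the sole gene called when slide 5, F1 HS 4 or F1 TN 6 was left out. The direction of the F1 set was lost without F1 HS 1, F1 HS 2 or F1 TN 3, each of which left 19 of 40 genes higher with a median between -0.02 and -0.00304, and array weights gave 20 higher and 20 lower.

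The temperature response was not shown to differ between breeds. The limma F test of the breed by temperature interaction called 0 of the 40 genes and 0 of all probes, and 2 genes, IRF2 (unadjusted p = 0.030) and TRIM25 (0.048), had an unadjusted p under 0.05, against 4.21% of all probes. The lowest adjusted p over the 40 genes was 0.982.

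Between breeds, 5 genes were higher in Large White than in Creole and none was lower. They were XAF1, IFIT2, IFIT5, OASL and SP100, and each is an antiviral effector in the list. The count of 5 of 40 (12.5%) stands beside 11.3% of all tested probes called in this comparison, so the share was near that of the array. An unadjusted p under 0.05 was found for 7 of 40 genes and 24.2% of all probes. The called probes of the array were split between higher (5.89%) and lower (5.38%). Of the 40 genes, 33 had a higher mean in Large White, beside 50% of all probes, with a median difference of 0.11 beside 6.24e-05 over all probes. Without Large White HS 5 alone the median was 0.06 (26 higher), without Creole HS 6 alone it was 0.06 (30 higher), and without Large White HS 4 it was 0.18. It was 0.17 without slide 2, 0.07 without slide 3 and 0.07 without slide 5. Without both Large White HS 5 and Creole HS 6, the pigs at both ends of the set level, 24 of 40 were higher with a median of 0.04, and XAF1, IFIT5 and OASL were called.

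XAF1 lies at chr12:50644783-50659807 of Sscrofa11.1 by RefSeq, and was measured by 2 probes. The probes are shown because the size of the breed difference depended on which one was read, with the brighter one first.
XAF1 brighter probe: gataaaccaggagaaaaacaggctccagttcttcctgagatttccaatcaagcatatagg
XAF1 second probe: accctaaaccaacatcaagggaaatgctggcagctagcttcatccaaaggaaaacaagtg

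With the brighter probe, XAF1 ran from 7.53 through a median of 8.48 to 9.24 in the 12 Creole pigs and from 8.96 through 9.83 to 11.67 in the 12 Large White pigs. The F1 pigs ran from 8.73 through 9.60 to 10.55. Of the Large White pigs, 11 of 12 lay above the highest Creole pig, and 9 of 12 F1 pigs did, so the breeds overlapped by few pigs.

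The mean of XAF1 was 8.43 ± 0.53 in Creole, 9.94 ± 0.67 in Large White and 9.63 ± 0.60 in F1 (SD, n = 12). The difference between Large White and Creole was 1.51 ± 0.24 (SE), or 2.85-fold (limma adjusted p = 3.87e-05), and it was positive within each of the 5 slides, at 0.96 to 1.88. The second probe gave 0.68 ± 0.22 (adjusted p = 0.0368). The levels of both probes, with no group means removed, correlated at r = 0.823 across the 36 pigs. Without Large White HS 5 the brighter probe gave 1.36 (adjusted p = 3.60e-05).

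In the groups, XAF1 averaged 8.24 ± 0.60 in Creole TN and 8.63 ± 0.41 in Creole HS, 9.94 ± 0.36 in Large White TN and 9.95 ± 0.92 in Large White HS, and 9.59 ± 0.58 in F1 TN and 9.67 ± 0.67 in F1 HS (SD, n = 6). At both temperatures Creole had the lowest mean, and TN and HS overlapped in each breed.

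**Figure D4:**
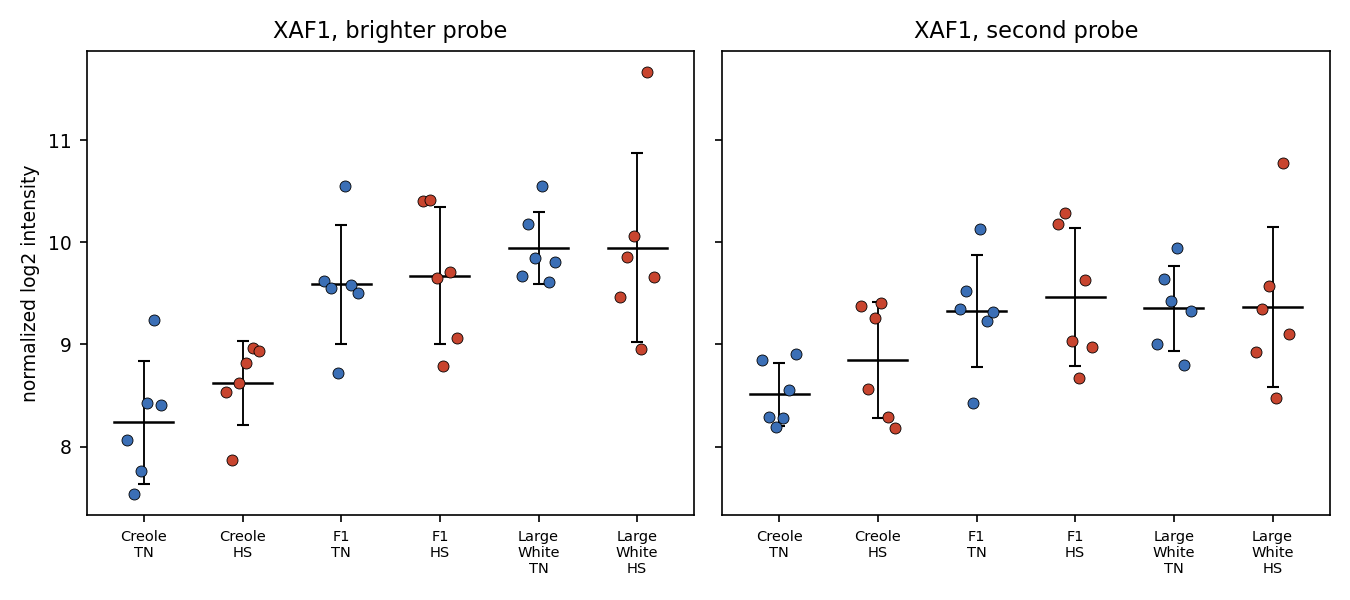
XAF1 level in each pig (points, normalized log2 intensity) by breed and temperature for its brighter and its second probe, with the group mean as a line and the SD as bars. With the brighter probe 11 of 12 Large White pigs lie above the highest Creole pig at 9.24, and with the second probe the difference is 0.68 in place of 1.51.

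The 4 other called genes differed by 1.25-fold to 1.32-fold. IFIT5, of the RNA-binding IFIT family, ran from 9.87 through 10.20 to 10.47 in Creole and from 10.14 through 10.50 to 10.94 in Large White, a difference of 0.32 ± 0.07 (SE, limma adjusted p = 0.00236). OASL, which enhances RIG-I signalling, ran from 6.06 through 6.81 to 7.27 in Creole and from 6.85 through 7.12 to 7.69 in Large White (0.37 ± 0.10, adjusted p = 0.0161). IFIT2 ran from 8.49 through 8.96 to 9.32 in Creole and from 8.76 through 9.36 to 9.90 in Large White (0.40 ± 0.12, adjusted p = 0.029). Both breeds overlapped for each of these genes, and the difference for OASL and IFIT2 was positive in 4 of 5 slides.

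SP100, a component of nuclear bodies that restrict viral genomes, was again read by a brighter and a second probe, and the call held for the brighter one alone.
SP100 brighter probe: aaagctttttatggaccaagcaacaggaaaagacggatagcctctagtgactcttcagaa
SP100 second probe: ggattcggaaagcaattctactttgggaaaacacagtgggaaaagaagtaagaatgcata

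SP100 ran from 8.35 through 8.66 to 9.19 in Creole and from 8.56 through 9.10 to 9.68 in Large White with the brighter probe, a difference of 0.38 ± 0.11 (SE, limma adjusted p = 0.0198). The second probe differed by 0.16 (adjusted p = 0.402). For IFIT5 the other probe differed by 0.18 (adjusted p = 0.125), and for IFIT2 the other probes differed by 0.34 and 0.07 (adjusted p = 0.198 and 0.855). XAF1 was the gene among these 4 for which a second probe also passed.

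The calls differed in how far they rested on single pigs and slides. XAF1 and IFIT5 were called when any of the 36 pigs or 5 slides was left out. OASL was not called without slide 4 (limma adjusted p = 0.143), SP100 and IFIT2 were not called without slide 3 or slide 5, and IFIT2 was lost without any one of 6 pigs (Creole TN 3, 4 or 5, Creole HS 6, Large White TN 4 or Large White HS 5).

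The F test over the 3 breeds called XAF1 (limma adjusted p = 7.89e-05), IFIT5 (0.00526) and OASL (0.0438), or 3 of 40 beside 10.4% of all probes. An unadjusted p under 0.05 was found for 7 of 40, beside 24.5% of all probes. SP100 was just outside at 0.0504. XAF1 and IFIT5 were called whichever of the 36 pigs or 5 slides was left out, while OASL was called without 1 of the 5 slides and without 21 of the 36 pigs (adjusted p up to 0.247). OASL was called in 7 of 11 processing alternatives. It was lost with slide as a fixed block, with the 75th percentile scaling, with no filter on dim probes and without temperature in the fit.

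Other breed differences of 0.35 or more did not pass. ISG15 (chr6:63363201-63364211) averaged 12.41 ± 0.82 in Creole, 12.98 ± 0.89 in Large White and 13.03 ± 0.84 in F1 (SD, n = 12), and Large White minus Creole was 0.56 ± 0.34 (SE, limma adjusted p = 0.318). IFI6, a mitochondrial and endoplasmic reticulum protein, averaged 16.32, 16.84 and 17.06 in the same order (0.52 ± 0.23, adjusted p = 0.141). IFIT3 differed by 0.43, RSAD2 by 0.41, USP18 by 0.37, IFIT1 by 0.38, GBP1 by 0.37 and IFI44L by 0.35, with adjusted p-values of 0.228, 0.386, 0.363, 0.285, 0.219 and 0.0622. DHX58, MX1 and OAS1 had their highest mean in F1, at 10.09, 13.85 and 10.38, against 9.67, 13.26 and 9.97 in Creole and 9.88, 13.25 and 9.83 in Large White. For OAS1 the order of both parental breeds was not settled, since Large White minus Creole was -0.14 with all pigs, 0.20 without Large White HS 4 and -0.80 with the second probe (adjusted p = 0.874, 0.737 and 0.148).

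Transcription factors of the set showed no such shift in their median: 4 of 7 had a higher mean in Large White, with a median difference of 0.00574, while 18 of 21 antiviral effectors did, with a median of 0.32. RNA sensors were higher in 3 of 3, at 0.11 to 0.21, and none passed. The difference between roles was not tested.

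Markers of several cell types also differed between Large White and Creole, where 11.3% of all probes were called. Of 17 tested leukocyte markers, 15 had a higher mean in Large White, with a median difference of 0.12. Of these 17, CD3D, a chain of the T cell receptor complex, was called higher (0.59, limma adjusted p = 0.00581) and CSF1R, the macrophage growth factor receptor, lower (-0.29, adjusted p = 0.0421). The leukocyte marker level ranged from -0.32 to 0.33 in Creole, from -0.22 to 0.38 in Large White and from -0.36 to 0.05 in F1.

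Adipocyte markers were called lower in Large White in 4 of 5, with a median of -0.90. Of the 4 tested medulla markers, CHGB (0.53), CHGA (0.16) and PNMT (0.38) were called higher. Of the 9 cortex markers, HSD3B1 (-0.78) and STAR (-0.34), which act in steroid synthesis, were called lower. Of the 6 endothelium markers, KDR (0.68) was called higher. The part of these cell types in the breed differences was not tested.

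F1 pigs were set against the mean of both parental breeds. None of the 40 genes was called by limma, beside 0.409% of all probes, and 3 had an unadjusted p under 0.05 (7.5%, against 11% of all probes). They were IFI6 (0.47 higher, adjusted p = 0.338), XAF1 (0.44 higher, adjusted p = 0.415) and IRF5, a transcription factor of inflammatory cytokine genes, at -0.28 (adjusted p = 0.354). The F1 mean was above that of the parents for 29 genes, beside 49.3% of all probes, with a median difference of 0.11 beside -0.0013 over all probes. The median was 0.05 without F1 HS 2 and 0.07 without F1 TN 4. MX1 had the largest value, 0.60 ± 0.39 (adjusted p = 0.615).

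MX1 and OAS1 were set apart by single pigs with levels far below the rest. MX1 lies at chr13:204843049-204868927, next to MX2 (chr13:204798633-204821612), and 7 of its probes were measured. The levels below come from the brightest of them, and the probe shown is another of the 7, in which the same pigs were low.
MX1 probe: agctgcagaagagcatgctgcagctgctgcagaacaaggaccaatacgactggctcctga

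MX1 was 10.60 in F1 HS 3, 10.58 in Large White HS 1 and 10.78 in Large White TN 3, while the other 33 pigs ran from 12.22 through a median of 13.75 to 15.57. These 3 pigs were below all other pigs in 7 of 7 probes. Over the 6 probes that were above background on all 36 arrays, they lay 6.01-fold to 8.87-fold, 5.88-fold to 9.02-fold and 5.44-fold to 8.38-fold under the median of the other pigs. The rest of the set was not low to that extent in them: the median difference of the other genes from their means was -0.16, -0.22 and 0.02.

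All 3 arrays were on slide 2, where the 5 other arrays ran from 12.93 to 15.03, while the 28 arrays on the other slides ran from 12.22 to 15.57. The part of the slide in the low MX1 levels was not tested. Without slide 2, MX1 in Large White minus Creole was 0.50 (limma adjusted p = 0.397) in place of -0.00498. Without the low pigs, the correlations of MX1 with the other 4 genes lay between 0.710 and 0.834.

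OAS1 (chr14:38851083-38867427, beside OAS2) showed 1 such pig. Both of its probes are given because the low level was read by each.
OAS1 brighter probe: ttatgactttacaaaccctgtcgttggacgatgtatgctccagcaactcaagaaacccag
OAS1 second probe: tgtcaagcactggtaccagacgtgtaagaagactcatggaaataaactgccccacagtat

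OAS1 was 6.18 in Large White HS 4, while the other 35 pigs ran from 8.83 through 10.22 to 11.22. The pig was below all others in 2 of 2 probes, 13.8-fold and 16.5-fold under the median. In it, 35 of the 39 other genes were also below their means, with a median of -0.41 and ISG15 at -1.54, while 29, 27 and 18 of 39 were below in the 3 pigs with low MX1. Without this pig, OAS1 in HS minus TN within Large White was -0.16 in place of -0.81.

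**Figure D5:**
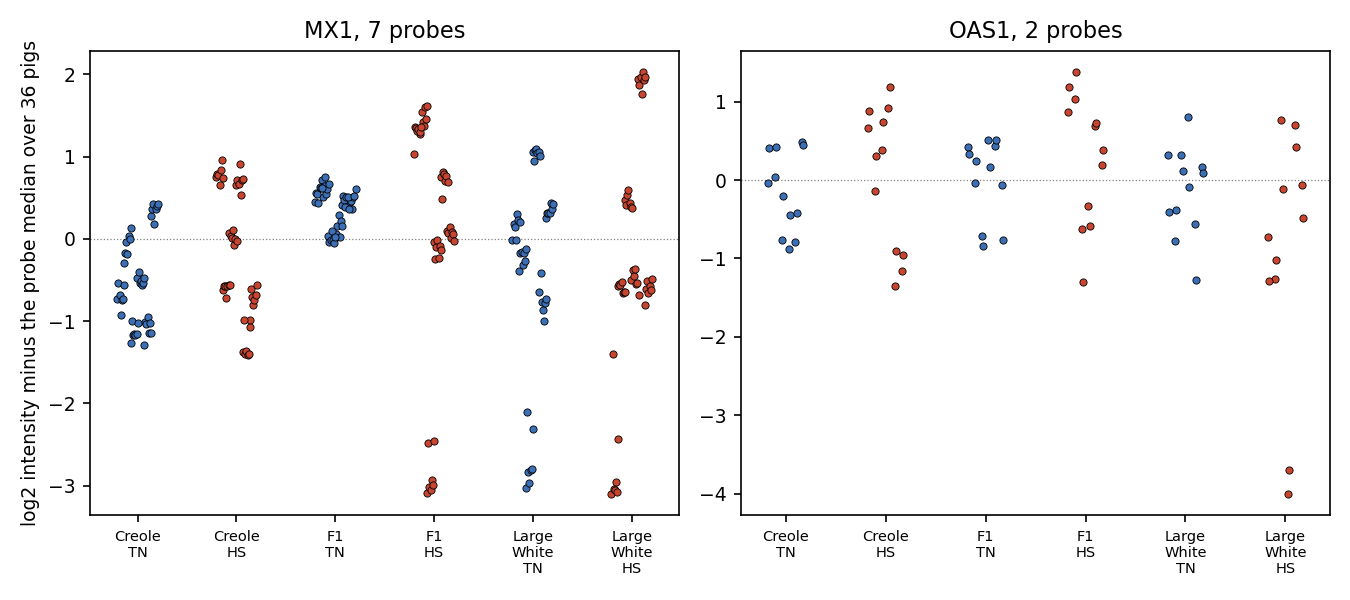
Level of each pig by breed and temperature for the 7 MX1 probes and the 2 OAS1 probes (points), as the normalized log2 intensity minus the median of the probe over 36 pigs. F1 HS 3, Large White HS 1 and Large White TN 3 lie below the other 33 pigs in 7 of 7 MX1 probes, and Large White HS 4 below the other 35 in both OAS1 probes.

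A second list held 67 genes around the interferon pathway. It was made up of 8 interferons, 6 receptor genes, 5 of JAK-STAT signalling, 6 negative regulators, 15 nucleic acid sensors and adaptors, and 27 other interferon-induced genes, and 46 of the 67 were counted. None was called by limma between HS and TN, and 4 of 46 had an unadjusted p under 0.05, beside 13.4% of all probes. Between Large White and Creole, 8 of 46 were called, beside 11.3% of all probes. The 4 higher in Large White were IFNE, an epithelial type I interferon (0.54, adjusted p = 0.0244), the interferon-induced genes GBP4 (0.87, adjusted p = 0.0021) and SAMHD1, which depletes nucleotides (0.23, adjusted p = 0.0215), and CGAS, the cytosolic DNA sensor (0.21, adjusted p = 0.0449). The 4 lower were IFNGR1 (-0.36, adjusted p = 0.0022) and IFNGR2 (-0.44, adjusted p = 0.005), the chains of the interferon gamma receptor, and the signalling adaptors TRAF3 (-0.20, adjusted p = 0.0088) and TRAF6 (-0.49, adjusted p = 0.0101).

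The receptor genes IFNAR1 and IFNAR2 and the kinase genes JAK1 and TYK2 of type I interferon signalling did not pass between HS and TN or between Large White and Creole. IFNAR1, IFNAR2 and JAK1 differed by at most 0.10 in size in either comparison. The IFNAR2 probe was very bright, with a mean of 18.36 (SD 0.07, n = 36) and saturation on 0 arrays. Whether this probe reads IFNAR2 alone was not tested. TYK2 was 0.14 higher in HS (limma adjusted p = 0.082) and -0.13 for Large White minus Creole (0.096). Of the interferons themselves, IFNE and IFNG were counted. IFNA1 was left out of the count, since the probe that carries its name has no value in the authors' table. A probe that the file names for another interferon alpha gene, but that matched IFNA1 by transcript, was above background on 36 arrays, with differences of 0.02 for both HS minus TN and Large White minus Creole (limma adjusted p = 0.926 and 0.878), and related interferon alpha genes may share it. The named probe was above background on 26 arrays, and its differences were 0.06 for HS minus TN and 0.10 for Large White minus Creole (limma adjusted p = 0.710 and 0.476). IFNB1 was above background on 0 of 36 arrays.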

How the data were processed

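Adrenal RNA of 36 pigs (6 groups of 6, taken from the labels) was measured on 1-colour arrays. The authors read the array scans with Agilent Feature Extraction 10.10.1.1 (per their processing notes) and deposited spot intensity values not normalized between arrays. A table of log2 values for 45348 probes, also deposited by the authors, was used to pick each gene's brightest probe and as an alternative. From the scanner files, median pixel intensities were quantile normalized without control or outlier spots and put on the log2 scale. Quantile normalization forces 1 distribution on all arrays, so a shift of most probes would not be seen. limma 3.58.1 (R 4.3.3, statmod 1.5.0) was fitted to all 45943 probes, of which 89 had a missing spot. GBP1 was fitted without Large White HS 6.

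Members and lists were chosen with earlier results of these data known. Named genes are those past the threshold in a comparison, the 10 largest HS minus TN differences, the 10 largest ranges of breed means, and ISG15, MX1, IFIT1, OAS1 and RSAD2, and in the pathway list those called and IFNAR1, IFNAR2, IFNGR1, JAK1 and TYK2. Others were named after their values were seen, and some items are not reported here. Alternatives covered normalization, background correction, filters, slide, array weights, probe choice and pigs left out. On simulated data, 86 of 100 probes changed by 0.5 and 98 of 100 changed by 1 were recovered for HS minus TN, and 78 and 97 of 100 for Large White minus Creole. The simulated probes were drawn at random from the tested probes, each with its own spread. These rates are not those of the set, where the within-group SD reached 0.87 for ISG15 and 1.18 for MX1. Changes of 0.5 in such genes may be missed. Each breed came from 3 litters and each group from 2 pens, which no fit could take as a block. Between breeds, p-values treat littermates as independent and may be too small. By the methods, pigs of a pen each came from a different litter, so each litter was split between TN and HS. For HS minus TN, leaving out the litter may make p-values too large, and leaving out the pen may make them too small.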

Additional observations from a re-analysis of the deposited data

Results flagged for a closer look

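Of 240 combinations of gene and group of 6 pigs, 17 (7.08%) held 1 pig set apart from the other 5 by Dixon's 95% criterion. For normal values chance gives about 1 in 20. The genes moved together within pigs, so the combinations are not separate observations. The share over all probes was not counted, so 7.08% cannot be read as more or less than usual. Large White HS 5 was the high pig for MX2 (9.67, nearest 8.32), IFI44 (9.65, nearest 8.57), EIF2AK2 (11.91, nearest 10.67), DHX58 (11.25, nearest 9.94) and IRF9 (10.82, nearest 10.15). F1 TN 3 was the low pig for MX2 (7.84, nearest 8.32), SP100 (8.44, nearest 8.83), DHX58 (9.15, nearest 9.97), IRF7 (11.06, nearest 11.69) and IRF9 (9.97, nearest 10.25).

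Large White TN 4 was the high pig for ISG15 (14.09, nearest 13.09) and RSAD2 (8.23, nearest 7.58). F1 HS 3 was low for MX1 (10.60, nearest 13.51) and high for OASL (7.33). The others were IFI44L in Creole TN 6 (9.76, nearest 9.35), GBP2 in Large White HS 1 (9.88, nearest 10.34) and PARP9 in Creole TN 1 (6.36). Dixon's criterion tests 1 pig against the other 5 and does not single out a low pig where several of a group are low.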

How the results depend on the processing

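Across 18 alternatives with a count, none of the 5 called Large White minus Creole differences and none of the 10 largest HS minus TN differences changed direction, whereas MX1 in Large White minus Creole moved from -0.00498 to 0.50 without slide 2. For Large White minus Creole, 5 calls became 3 without slide 3, 3 without slide 5, 3 with the median over all probes of a gene, and 3 without Large White HS 5 and Creole HS 6 (chosen after seeing the data), and lay between 4 and 6 when single pigs were left out. The breed F test called 5 genes with array weights in place of 3, and 2 to 6 with single pigs left out. HS minus TN within F1 called 1 gene, IRF2, without slide 5, and 0 to 1 with single pigs left out, and the other temperature comparisons stayed at 0. IFIT2 was not called with the 75th percentile scaling (adjusted p = 0.0518) or with the median of its probes (0.232), and SP100 was not called with the latter (0.104). The count of genes with a higher mean in HS ran from 22 to 35 of 40 over the alternatives. No paired analysis was possible, because each pig was slaughtered at 1 temperature and the litter of each pig is not given with the arrays. The precision differed between genes, with an SE for Large White minus Creole of 0.07 for IFIT5 and 0.45 for MX1.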
